A study of Mus musculus with 15 samples.

Results

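The miR-183 cluster is a set of 3 miRNAs made from neighbouring hairpins on mouse chromosome 6: mmu-miR-183-5p, mmu-miR-96-5p and mmu-miR-182-5p (mmu stands for mouse and is mostly left out below). The members were taken by name and make up 3 of the 1915 mature miRNAs in the deposited table. They were followed through small RNA libraries of pancreatic acini, the enzyme-secreting units of the exocrine pancreas, from C57BL/6 mice aged 7 to 8 weeks. The 15 libraries formed 5 groups of 3: caerulein at 100 nM, caerulein at 100 pM, taurolithocholic acid 3-sulfate (TLC-S) at 250 uM, TLC-S at 62.5 uM, and a control without drug. Caerulein acts on acinar cells through the receptor for cholecystokinin; 100 nM is labelled a pathological and 100 pM a physiological dose. TLC-S is a sulfated bile acid that is toxic to acinar cells. Per the labels, each library was made from 1 ug of total RNA pooled from 3 acinar preparations. The labels do not say whether the libraries of a group shared preparations, so the spread that p-values rest on may be partly technical. The labels name no transgene or deletion.

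The hairpins of this cluster are cut from a shared primary transcript, and each yields a mature strand that guides Argonaute to messenger RNAs, mainly through its seed, the bases 2 to 8. The cluster is best known from sensory organs: it is abundant in photoreceptors and inner ear hair cells, and mutations in the seed of miR-96 cause hearing loss in mice and humans. Its members are also found in other epithelia and in neuroendocrine cells, and are often raised in carcinomas.

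The mature sequences are shown because the members have closely related seeds, given in capitals, while the likeness of the other bases varies between pairs. They are from RefSeq (GRCm38.p6) and read 5′ to 3′.
miR-183-5p: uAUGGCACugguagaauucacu
miR-96-5p: uUUGGCACuagcacauuuuugcu
miR-182-5p: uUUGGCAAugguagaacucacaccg
Counting from 1 at the 5′ end, the seed of miR-183-5p differs from that of miR-96-5p by A2U, and the seed of miR-96-5p differs from that of miR-182-5p by C8A. The seeds of miR-183-5p and miR-182-5p differ by both A2U and C8A, with 5 of 7 bases identical. Outside the seed, the aligned bases of miR-183-5p and miR-182-5p differ only by U17C and U22A. Over the whole strand, aligned without gaps from the 5′ end, miR-183-5p matched miR-182-5p at 18 of 22 positions. It matched miR-96-5p at 13 of 22 positions, and miR-96-5p matched miR-182-5p at 12 of 23. A RefSeq sequence was found for 1623 of the 1915 miRNAs in the table. Among these, 0 others had the seed of any member, and miR-96-5p and miR-182-5p were the only miRNAs with UUGGCA at bases 2 to 7.

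The hairpins are shown with both mature arms in capitals, the 5p arm before the loop and the 3p arm after it, because the arms differed greatly in their counts. All lie on the minus strand of GRCm38, so they are listed in the order of transcription.
Mir183 (chr6:30169668-30169737): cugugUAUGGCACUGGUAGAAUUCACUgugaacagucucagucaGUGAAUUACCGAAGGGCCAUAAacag
Mir96 (chr6:30169446-30169551): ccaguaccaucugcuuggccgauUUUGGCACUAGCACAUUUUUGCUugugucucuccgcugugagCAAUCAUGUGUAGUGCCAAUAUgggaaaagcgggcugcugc
Mir182 (chr6:30165918-30165992): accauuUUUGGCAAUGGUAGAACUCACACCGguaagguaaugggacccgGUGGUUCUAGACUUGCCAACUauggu
The cluster spans 3820 bases. Mir183 and Mir96 are 116 bases apart, and Mir182 follows after a further 3453 bases. In GENCODE M21 the span overlaps 0 annotated genes other than the miRNAs, so the hairpins are intergenic. The nearest gene is the long noncoding RNA Rncr4, 3155 bases away on the plus strand. The nearest protein-coding genes are Nrf1, which encodes a transcription factor of mitochondrial genes, at 12459 bases, and Ube2h, which encodes a ubiquitin-conjugating enzyme, at 41551 bases.

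Library totals ran from 535473 to 5087728 counts. The acini label was checked against miRNAs known from acinar cells (miR-148a-3p, miR-217-5p, both arms of miR-216a and miR-216b-5p), whose summed level ran from 238857 to 787935 CPM (counts scaled to a common library size, here with TMM factors). miR-148a-3p alone took 50.5% of the counts of control replicate 3, against 17.6% and 18.7% in the other controls, and such a share lowers the plain share of every other miRNA in the library. The endothelial miR-126a arms summed to between 3401 and 8768 CPM, and stellate and mesenchymal miRNAs to between 7891 and 17298 CPM. Leukocyte miRNAs reached 39.2 to 107 CPM, erythrocyte miRNAs 85.6 to 172 CPM, and islet and neuroendocrine miRNAs 79722 to 142988 CPM, most of it miR-375-3p. None of the miRNAs in these lists was at 0 in all libraries, and none was called against control. Their part in the values of the cluster was not tested.

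The 3 members were moderately abundant in acini and passed the filter on low counts together with 348 other miRNAs (351 tested). mmu-miR-182-5p was the most abundant, at 3621 ± 1153 CPM over all libraries (SD, n = 15), which placed it at rank 31 of the 351. mmu-miR-183-5p, at 2487 ± 493 CPM, held rank 39, and mmu-miR-96-5p, at 919 ± 187 CPM, held rank 58. By level miR-182-5p stood between miR-1839-5p (3725 CPM) and miR-101b-3p (3399 CPM). miR-183-5p stood between let-7a-5p (2731 CPM) and miR-23a-3p (2277 CPM), and miR-96-5p between miR-99b-5p (941 CPM) and miR-200a-5p (908 CPM). These neighbours did not differ from the member beyond the spread over libraries. In bulk samples such as these, fewer cells of a type and less miRNA per cell cannot be told apart.

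**Figure D1:**
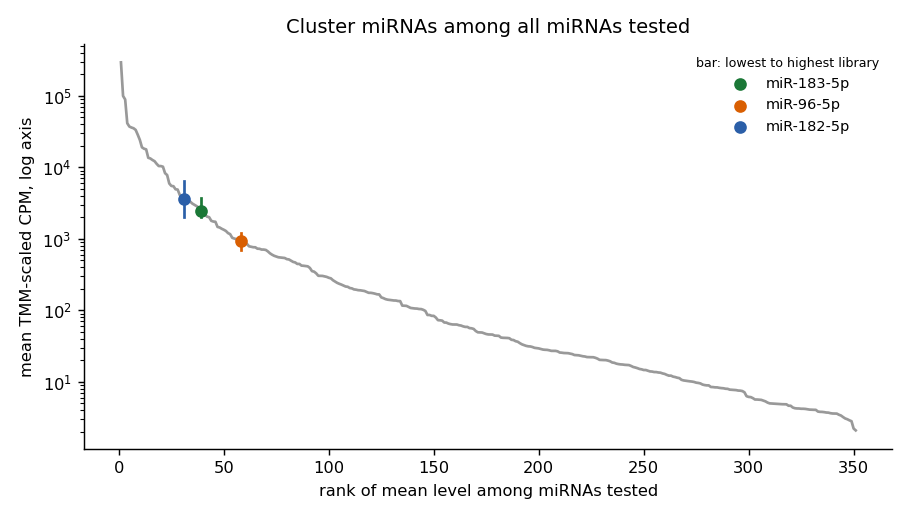
Mean level of each of the 351 miRNAs tested (TMM-scaled CPM, log axis, over 15 libraries) by its rank, with the cluster miRNAs as points and bars from their lowest to their highest library. miR-182-5p, miR-183-5p and miR-96-5p sit at ranks 31, 39 and 58.

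In TMM-scaled CPM the relative spread over libraries differed among the members. The coefficient of variation of miR-182-5p was 31.8%, larger than that of 46 of the 50 miRNAs nearest to it in level, whose median was 19.8%. For miR-183-5p it was 19.8% (neighbours' median 20.4%) and for miR-96-5p 20.4% (neighbours' median 21.7%). On this scale miR-182-5p thus varied more between libraries than most miRNAs of its abundance, and the other members varied about as much as theirs. By plain share of counts miR-182-5p held 0.356% ± 0.0809, miR-183-5p 0.248% ± 0.0429 and miR-96-5p 0.0925% ± 0.0221 (SD, n = 15). By that measure miR-182-5p did not have the largest spread relative to its mean among the members. Together the cluster took 0.696% ± 0.0880 of counts (SD, n = 15). The lowest share was 0.548% in control replicate 3 (exact 95% interval from 0.539 to 0.557, counting error only). The highest was 0.838% in caerulein 100 nM replicate 3 (0.830 to 0.846). Both extremes changed with scaling: in TMM-scaled CPM the lowest sum was 5731 in TLC-S 62.5 uM replicate 1 and the highest 10118 in caerulein 100 pM replicate 2, with control replicate 3 at 7456.

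Nearly all counts of each hairpin came from the 5p arm. Summed over the libraries, miR-183-3p had 38 counts against 73959 of miR-183-5p, a share of 0.0514% (exact 95% interval from 0.0363 to 0.0705). miR-96-3p had 5 counts against 27429, a share of 0.0182% (0.00592 to 0.0425), and miR-182-3p had 14 counts against 111103, a share of 0.0126% (0.00689 to 0.0211). The other arm was listed at 0 in 2 of 15 libraries for miR-183-3p, in 12 for miR-96-3p and in 9 for miR-182-3p, and no library held more than 6 counts of any of them. None of the 3p arms passed the low-count filter, so they were not tested between groups. By group, miR-182-3p had 0 counts with caerulein at 100 nM, 0 at 100 pM, 7 with TLC-S at 250 uM, 3 at 62.5 uM and 4 in control. These counts are too few to compare groups at this depth.

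miR-183-5p, the most upstream member, was at 2440, 3065 and 2448 CPM in the libraries with caerulein at 100 nM and at 2541, 3764 and 2786 CPM with caerulein at 100 pM. It was at 2073, 2613 and 2039 CPM with TLC-S at 250 uM and at 2006, 2021 and 2038 CPM with TLC-S at 62.5 uM, against 2798, 2051 and 2622 CPM in control. The highest library was replicate 2 of caerulein 100 pM. In CPM the 3 libraries of TLC-S 62.5 uM were close together and lay just below the lowest control. In order of the mean the groups ran caerulein 100 pM (3030 ± 647), caerulein 100 nM (2651 ± 359), control (2490 ± 391), TLC-S 250 uM (2242 ± 322) and TLC-S 62.5 uM (2022 ± 15.8; SD, n = 3 each). Neighbours in this order differed by less than the SD of at least 1 of the groups.

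miR-96-5p, the scarcest member, was at 1212, 899 and 693 CPM with caerulein at 100 nM and at 1117, 862 and 765 CPM with caerulein at 100 pM. It was at 1043, 858 and 843 CPM with TLC-S at 250 uM and at 717, 929 and 736 CPM with TLC-S at 62.5 uM, against 1220, 722 and 1162 CPM in control. Treated and control libraries overlapped in each of these groups. The means ran from 794 ± 117 CPM with TLC-S at 62.5 uM to 1035 ± 273 CPM in control (SD, n = 3 each), with the other groups between 914 and 935 CPM. These differences were smaller than the spread within the control group.

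miR-182-5p was at 2849, 3832 and 4891 CPM with caerulein at 100 nM and at 3021, 5491 and 6456 CPM with caerulein at 100 pM. It was at 3106, 3146 and 3671 CPM with TLC-S at 250 uM and at 3008, 2860 and 3050 CPM with TLC-S at 62.5 uM, against 2027, 3237 and 3673 CPM in control. The 4 libraries above all controls were caerulein libraries, replicates 2 and 3 at each dose, while replicate 1 at each dose lay within the control range. The means ran caerulein 100 pM (4989 ± 1772), caerulein 100 nM (3857 ± 1021), TLC-S 250 uM (3308 ± 315), control (2979 ± 853) and TLC-S 62.5 uM (2973 ± 99.5; SD, n = 3 each). Neighbours in this order differed by less than the larger of their SDs.

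**Figure D2:**
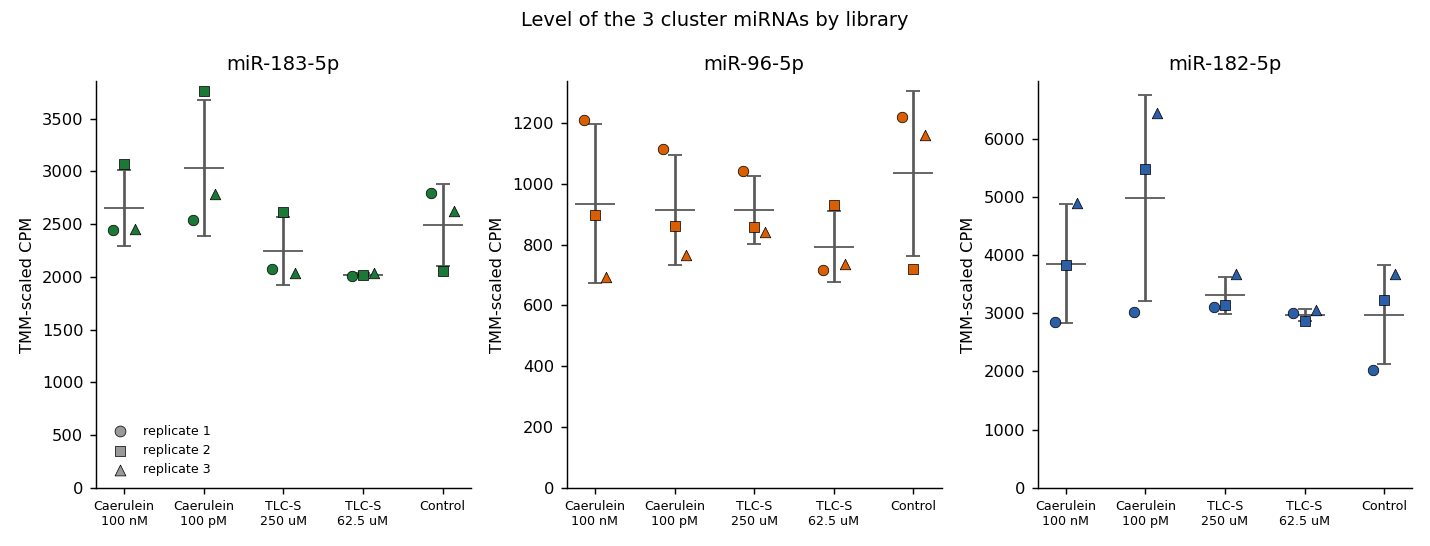
TMM-scaled CPM of each cluster miRNA (1 panel each) in the 15 libraries by group; points are libraries, marked by replicate number, and bars are the mean ± SD (n = 3). On this scale the groups overlap for miR-96-5p, the 3 TLC-S 62.5 uM libraries lie just below the controls for miR-183-5p, and the highest miR-182-5p values (4891, 5491 and 6456 CPM) are caerulein libraries.

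The first comparison asks whether the members differ at the pathological dose of caerulein. At 100 nM against control the log2 difference was 0.09 for miR-183-5p (SE 0.23), -0.15 for miR-96-5p (SE 0.26) and 0.37 for miR-182-5p (SE 0.27). None of the 3 passed (adjusted p = 0.984 for each, edgeR's quasi-likelihood test), and neither did any other of the 351 miRNAs (0% called; DESeq2 called 1 miRNA, not a member). At an unadjusted p under 0.05 stood 0 of the 3, against 3.42% of all tested. The caerulein and control libraries overlapped for all 3 members; they were apart for 6.55% of miRNAs tested. The 95% intervals reached from -0.37 to 0.55 for miR-183-5p, from -0.68 to 0.39 for miR-96-5p and from -0.19 to 0.93 for miR-182-5p, and the widest upper bound, that of miR-182-5p, was a 1.91-fold higher level. The difference of miR-182-5p lay at the 83.2nd percentile of all log2 differences in this comparison.

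The physiological dose gave the widest separation of miR-182-5p from control. At 100 pM the log2 difference of miR-182-5p was 0.74 (SE 0.27, 95% interval from 0.18 to 1.30), a 1.67-fold higher level, with 2 of 3 libraries above all controls. It had the fourth smallest p of the 351 (unadjusted p = 0.0114, edgeR) but did not pass after adjustment over the 351 (adjusted p = 0.722). Here 0% of all miRNAs were called, by DESeq2 also 0, and 6.84%, miR-182-5p among them, had an unadjusted p under 0.05. miR-183-5p differed by 0.28 (SE 0.23, adjusted p = 0.942, edgeR) and miR-96-5p by -0.18 (SE 0.26, adjusted p = 0.942, edgeR). Libraries of the groups overlapped for all 3 members and were apart for 10.3% of miRNAs tested. Scaling bears on these values: when libraries were scaled by their totals, the median of all miRNAs shifted by -0.24, and the difference of miR-182-5p was 0.49 (adjusted p = 0.852, edgeR).

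Against control, TLC-S at 250 uM gave log2 differences of -0.15 for miR-183-5p (SE 0.23), -0.18 for miR-96-5p (SE 0.26) and 0.15 for miR-182-5p (SE 0.27), and none passed (adjusted p = 0.999 for each, edgeR; 0% of all tested were called, by DESeq2 also 0, and 1.14% had an unadjusted p under 0.05). All TLC-S 250 uM libraries of miR-96-5p and miR-182-5p lay within the range of the controls, and for 7.12% of all miRNAs the groups were apart. At 62.5 uM the differences were -0.30 for miR-183-5p (SE 0.23), -0.38 for miR-96-5p (SE 0.26) and -0.0030 for miR-182-5p (SE 0.27). None of these passed either (adjusted p = 0.880, 0.835 and 1.00 in the same order, edgeR), where 0.57% of all miRNAs were called and 7.41% had an unadjusted p under 0.05, 0 of the members among them. In TMM-scaled CPM, miR-183-5p was the 1 member whose libraries did not overlap between TLC-S 62.5 uM and control, which was the case for 12.3% of all miRNAs tested. By plain share of counts, its TLC-S 62.5 uM libraries (0.209% to 0.233%) lay within the control range (0.193% to 0.313%). For miR-183-5p the interval reached from -0.76 to 0.16, for miR-96-5p from -0.92 to 0.15 and for miR-182-5p from -0.56 to 0.56. The acinar miRNAs had negative differences from control in 5 of 5 at 250 uM and at 62.5 uM, with 0 called. Their medians were -0.13 and -0.43, against -0.03 and -0.01 for all tested. With caerulein against control, 3 of 5 were negative at 100 nM and 2 of 5 at 100 pM. Their part in the values of the cluster was not tested.

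The doses of each agent were compared directly. Between caerulein at 100 nM and at 100 pM the log2 difference was -0.19 for miR-183-5p (SE 0.23), 0.03 for miR-96-5p (SE 0.26) and -0.37 for miR-182-5p (SE 0.27; adjusted p = 0.986 for each, edgeR; 0% of all tested called, by DESeq2 also 0, and 1.71% with an unadjusted p under 0.05). The caerulein doses overlapped for all 3 members and were apart for 5.7% of miRNAs. Scaled by library totals, where the median of all miRNAs shifted by 0.29, the difference of miR-183-5p turned to 0.13. Between TLC-S at 250 uM and at 62.5 uM the members had similar differences, 0.15 for miR-183-5p (SE 0.23), 0.20 for miR-96-5p (SE 0.26) and 0.15 for miR-182-5p (SE 0.27). None passed (adjusted p = 0.941 for each, edgeR), where 1.14% of all miRNAs were called and 8.83%, none of the members among them, had an unadjusted p under 0.05. In TMM-scaled CPM the libraries of the TLC-S doses did not overlap for miR-183-5p and miR-182-5p, 2 of the 3 members, against 12% of all miRNAs tested. For miR-183-5p the gap was narrow (2039 against 2038 CPM). By plain share of counts both overlapped. In replicate 3, miR-183-5p held 0.184% at 250 uM and 0.233% at 62.5 uM, and miR-182-5p held 0.331% and 0.349%. The intervals of miR-183-5p and miR-182-5p, from -0.31 to 0.61 and from -0.40 to 0.71, included 0. The acinar miRNAs had positive differences in 5 of 5 members in this comparison as well, with a median of 0.35 and 0 called, and their part here was not tested.

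Between agents, the higher doses gave small differences: 0.24 for miR-183-5p (SE 0.23), 0.03 for miR-96-5p (SE 0.26) and 0.22 for miR-182-5p (SE 0.27) for caerulein 100 nM against TLC-S 250 uM. None passed (adjusted p = 1.00 for each, edgeR; 0% of all tested called, 1 miRNA by DESeq2, and 2.28% with an unadjusted p under 0.05). The libraries overlapped for all 3 members and were apart for 5.41% of miRNAs. Between the lower doses the differences of miR-182-5p and miR-183-5p were wider. With caerulein at 100 pM miR-182-5p averaged 4989 CPM, against 2973 CPM with TLC-S at 62.5 uM, a log2 difference of 0.75 (SE 0.27, 95% interval from 0.19 to 1.31). miR-183-5p averaged 3030 CPM against 2022 CPM, a log2 difference of 0.58 (SE 0.23, interval from 0.12 to 1.05), with all 3 caerulein libraries above all 3 TLC-S libraries in CPM. In CPM the libraries of these groups were apart, in either direction, for 16.2% of miRNAs tested. By plain share of counts those of miR-183-5p overlapped, with 0.221% in caerulein 100 pM replicate 3 and 0.233% in TLC-S 62.5 uM replicate 3. Neither miR-182-5p nor miR-183-5p passed (adjusted p = 0.216 for both, edgeR), where 1.42% of all miRNAs were called and 13.7%, these members among them, had an unadjusted p under 0.05 (0.0111 for miR-182-5p and 0.0160 for miR-183-5p). miR-96-5p differed by 0.20 (SE 0.26, adjusted p = 0.820, edgeR).

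Among the comparisons of groups, this was the 1 in which an alternative setting moved a member across the threshold. Without replicate 1 of caerulein 100 pM the difference of miR-182-5p from TLC-S 62.5 uM was 1.02 (SE 0.27, adjusted p = 0.0329, edgeR). In that setting 11 of 366 miRNAs were called. The library left out had the lowest miR-182-5p of its group (3021 CPM, against 5491 and 6456 CPM). Over all 23 alternatives the difference of miR-182-5p ran from 0.31 to 1.02. Scaled by library totals, where the median of all miRNAs shifted by -0.34, it was 0.34, and the difference of miR-96-5p turned to -0.12. The difference of miR-183-5p ran from 0.20 to 0.71 over the 23 alternatives. The acinar miRNAs had positive differences here in 5 of 5 members (median 0.71, against -0.0026 for all tested), 1 of which passed, mmu-miR-216a-3p (log2 difference 1.22, SE 0.29, adjusted p = 0.0345, edgeR). Their part in the differences of the cluster was not tested.

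**Figure D3:**
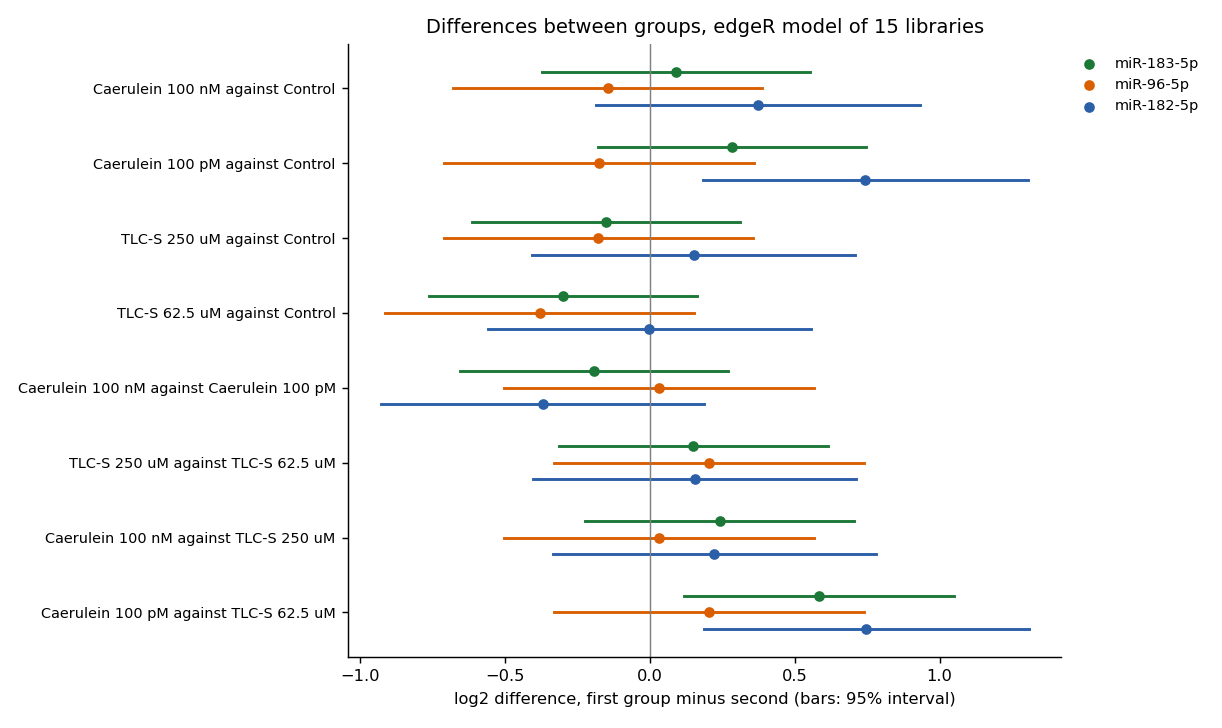
Log2 difference of each cluster miRNA in the 8 comparisons of groups, as the first named group minus the second, with 95% intervals from edgeR's quasi-likelihood model of all 15 libraries. The intervals that leave out 0 are those of miR-182-5p for caerulein 100 pM against control (0.18 to 1.30) and of miR-182-5p and miR-183-5p for caerulein 100 pM against TLC-S 62.5 uM.

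In a test over all 5 groups at once, miR-182-5p had F = 2.82 (unadjusted p = 0.0466, adjusted p = 0.671, edgeR), the 24th smallest p of 351, with 7.41% of miRNAs at an unadjusted p under 0.05 and 0.855% called. miR-183-5p (adjusted p = 0.831, edgeR) and miR-96-5p (adjusted p = 0.980, edgeR) did not pass either.

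The proportions of the members within a library do not depend on scaling between libraries. Of the counts of the cluster, miR-182-5p held 50.8% ± 7.27, miR-183-5p 35.6% ± 4.40 and miR-96-5p 13.5% ± 3.72 (SD, n = 15). This make-up was not fixed: the share of miR-182-5p ran from 33.5% in control replicate 1 to 64.5% in caerulein 100 pM replicate 3. The ratio of miR-182-5p to miR-183-5p was 0.724 in control replicate 1, the 1 library with more miR-183-5p than miR-182-5p, and 2.32 in caerulein 100 pM replicate 3. The ratio of miR-182-5p to miR-96-5p spanned a 5.07-fold range, from 1.66 in control replicate 1 to 8.43 in caerulein 100 pM replicate 3. The rarest member had at least 514 counts in every library.

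**Figure D4:**
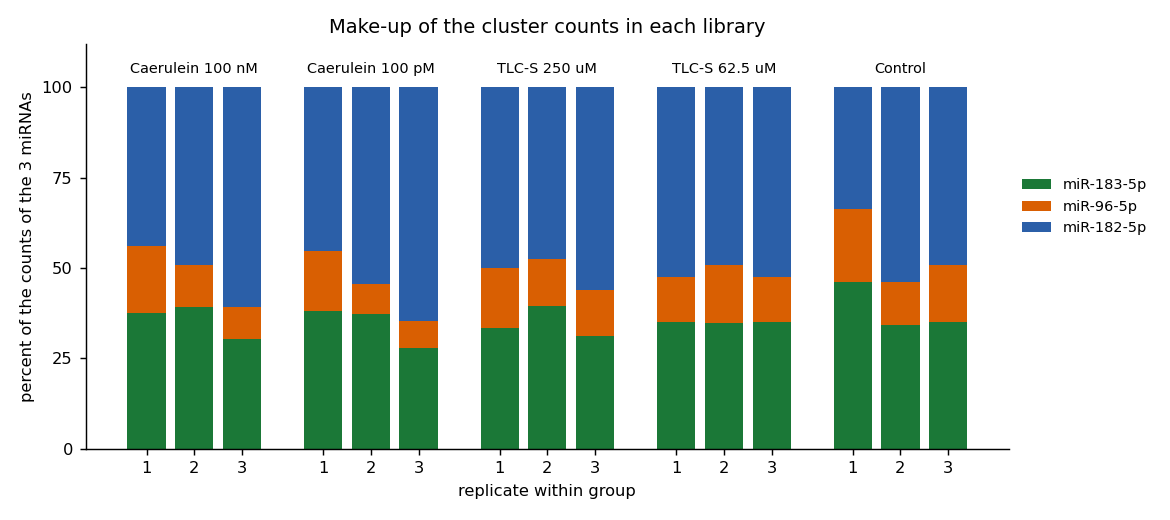
Percent of the counts of the cluster held by each of its miRNAs in the 15 libraries, by group and replicate number. miR-182-5p holds from 33.5% (control replicate 1) to 64.5% (caerulein 100 pM replicate 3), and miR-96-5p from 7.65% to 20.2%.

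By group, the log2 ratio of miR-182-5p to miR-183-5p averaged 0.51 ± 0.42 with caerulein at 100 nM, 0.67 ± 0.49 at 100 pM, 0.57 ± 0.29 with TLC-S at 250 uM, 0.56 ± 0.05 at 62.5 uM and 0.23 ± 0.61 in control (SD, n = 3 each). The differences from control ran from 0.29 to 0.44 and none passed (exact two-sided permutation p from 0.5 to 0.6; 3 against 3 cannot go below 0.1). The log2 ratio of miR-96-5p to miR-183-5p averaged -1.53 ± 0.45, -1.72 ± 0.48, -1.29 ± 0.31 and -1.36 ± 0.21 in the same order of treated groups, against -1.29 ± 0.19 in control. The widest difference was -0.43 with caerulein at 100 pM (exact permutation p = 0.3), where 2 of 3 libraries lay below all controls. For the ratio of miR-182-5p to miR-96-5p, examined after its values were seen, the widest difference was 0.87, also at 100 pM (exact permutation p = 0.3). Over the 12 tests of ratios, the adjusted p was at least 0.84. Control replicate 1 decided much of the ratio of miR-182-5p to miR-183-5p: without it, the difference from control was -0.06 for caerulein 100 nM and 0.10 for caerulein 100 pM.

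The levels of the members showed no shared rise and fall over the libraries that passed a test. Pearson's r of log2 CPM over the 15 libraries was 0.24 for miR-183-5p with miR-96-5p (rho 0.38), 0.44 for miR-183-5p with miR-182-5p (rho 0.46) and -0.49 for miR-96-5p with miR-182-5p (rho -0.44). With permutation tests adjusted over the 3 pairs, none passed (adjusted p = 0.387, 0.154 and 0.154 for r, and 0.158, 0.149 and 0.149 for rho; raw p = 0.387, 0.102 and 0.0657 for r, and 0.158, 0.0841 and 0.0996 for rho). Without the 2 libraries farthest from the median of the miRNA named first in each pair, r was 0.43, 0.19 and -0.26. Scaled by library totals, the negative correlation of miR-96-5p with miR-182-5p passed (r = -0.72, permutation test, adjusted p = 0.00699). All of these were permutation tests over libraries, and the libraries of a group share their treatment.

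For deviations from the group means, r was -0.71 for miR-96-5p with miR-182-5p (rho -0.72), 0.14 for miR-183-5p with miR-96-5p (rho 0.17) and 0.07 for miR-183-5p with miR-182-5p (rho 0.05). An exact permutation test over the 7776 reorderings within groups gave p = 0.0404 for the r of miR-96-5p with miR-182-5p, which did not pass over the 3 pairs (adjusted p = 0.121), and p = 0.676 and 0.849 for the others. The exact p for rho was 0.0265 (adjusted p = 0.0795), 0.634 and 0.887 in the same order. In 5 of 5 groups the library with the least miR-182-5p was the one with the most miR-96-5p, and in 3 of them the levels of these miRNAs ran in fully opposite order. In 4 of the 5 groups that library was replicate 1, whose sample codes (AJ1 to AJ5) form a series over the groups. With the means of the code series removed as well, r was -0.51 for miR-96-5p with miR-182-5p, 0.34 for miR-183-5p with miR-96-5p and -9.8e-05 for miR-183-5p with miR-182-5p. A series holds 5 libraries, too few for a correlation of its own, and the labels do not say what the codes stand for.

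**Figure D5:**
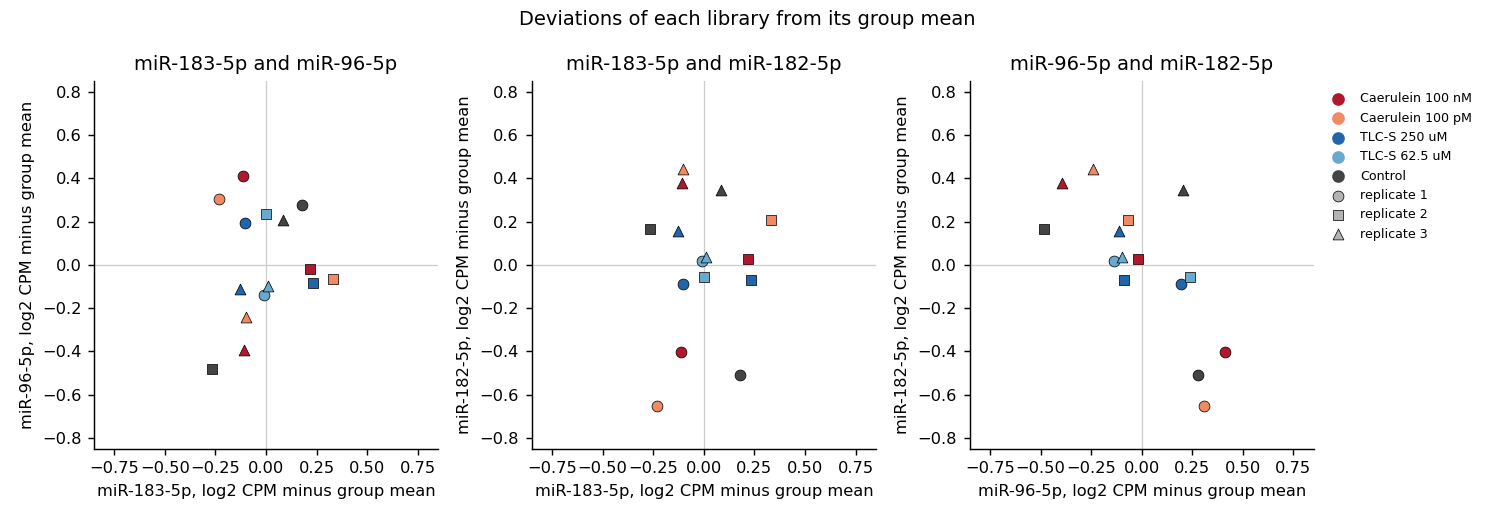
Each library's deviation from its group mean (log2 CPM) for the 3 pairs of cluster miRNAs; colours are groups and symbols are replicate numbers. The points of miR-96-5p and miR-182-5p run from upper left to lower right (r = -0.71, n = 15), with replicate 1 of 4 groups on the side of low miR-182-5p, and the other pairs show no slope beyond their spread (r = 0.14 and 0.07).

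Each member had other miRNAs whose levels were more like its own than those of the rest of the cluster. Ranked by r of log2 CPM over the 15 libraries among 350 other miRNAs, miR-182-5p was the 39th most like miR-183-5p, and miR-96-5p the 93rd. For miR-182-5p, miR-96-5p stood at rank 306 of 350. The 5 miRNAs most like miR-183-5p were let-7f-5p (r = 0.84), miR-216a-3p (0.81), miR-148a-5p (0.78), miR-7a-5p (0.73) and miR-1843a-5p (0.72). Most like miR-182-5p were miR-217-5p (0.86), miR-30a-3p (0.84), miR-5099 (0.82), miR-151-3p (0.82) and miR-374b-5p (0.79). Most like miR-96-5p were miR-582-5p (0.83), miR-98-5p (0.79), miR-200a-3p (0.76), miR-153-3p (0.76) and miR-152-5p (0.75). Of these, miR-216a-3p and miR-217-5p are on the list of acinar miRNAs, miR-7a-5p and miR-153-3p are on the islet list, and miR-200a-3p is on the miR-200 list. These are the highest of 350 values each and carry no test. All miRNAs of a library share its depth and its scaling factor, which differ between libraries.

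For deviations from the group means the highest r was with miR-148a-5p for miR-183-5p (0.72), miR-5099 for miR-182-5p (0.90) and miR-582-5p for miR-96-5p (0.87). GC content was 48% for miR-182-5p, 40.9% for miR-183-5p and 39.1% for miR-96-5p. Among the 5 miRNAs most like each member by r of log2 CPM, the median GC content was 47.8% for miR-182-5p (3 with a sequence), 45.5% for miR-183-5p and 36.4% for miR-96-5p, against 47.6% for the 311 of 350 other miRNAs with a sequence. Across those 311 the rank correlation of GC content with r of log2 CPM was 0.07 for miR-182-5p, -0.04 for miR-183-5p and -0.15 for miR-96-5p. With r of deviations from group means it was 0.10, -0.06 and -0.15 in the same order. The part of base composition in these patterns was not tested.

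Other miRNAs known from epithelia or from the sensory and nervous systems are given for comparison. The miR-200 family, which keeps epithelial cells from a mesenchymal state, was far more abundant than the cluster, with miR-200a-3p at 41515 ± 9847 CPM and miR-200b-3p at 37294 ± 6822 CPM (SD, n = 15). It had 0 of 5 members called in any of the 8 comparisons, and medians against control of -0.03 with caerulein at 100 nM, 0.01 at 100 pM, -0.18 with TLC-S at 250 uM and 0.01 at 62.5 uM. The corresponding medians of all miRNAs tested were 0.03, 0.01, -0.03 and -0.01. Other epithelial miRNAs, led by miR-203-3p at 773 ± 227 CPM and miR-192-5p at 626 ± 144 CPM, had 0 of 5 called against control. Between TLC-S at 250 uM and at 62.5 uM, 1 of these 5 was called, among 4 of the 351 tested (median of the list -0.44). Neuronal and sensory miRNAs were scarce, with 207 to 485 CPM summed over the 5 tested of 7 listed, led by miR-138-5p at 205 ± 70.1 CPM, and 0 were called. The islet and neuroendocrine miRNAs, in which miR-375-3p led at 99986 ± 16044 CPM, had 0 of 6 called in any comparison. Medians of the islet list against control were 0.17 with caerulein at 100 nM, 0.23 at 100 pM, 0.12 with TLC-S at 250 uM and 0.12 at 62.5 uM. In the same order 4, 4, 5 and 4 of 6 were positive.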

How the data were processed

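Small RNA libraries from mouse pancreatic acini were analysed from the authors' tables. The submitters' processing notes name cutadapt, Bowtie, GRCm38 and mm10. Tool versions and the program that counted reads are not given there. The deposited mature table holds estimated counts (expected counts), already whole. For the 3 members these equalled the deposited estimated counts per precursor in all libraries, with 1 precursor each and 0 fractional values. The authors' RPM values served only for alternatives.

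The 15 libraries entered 1 model of 5 group means, taken from the titles, in edgeR 4.0.16 (R 4.3.3). Scaling was by TMM, low counts were removed by filterByExpr (at least 10 counts, total of 15), and glmQLFTest followed glmQLFit. Benjamini-Hochberg adjustment ran over the 351 miRNAs left, with a threshold of 0.05. The model and the alternative tools were tested on simulated data. SEs come from the F statistic; log2 CPM uses a prior count of 0.5. Ratios are log2 of counts after adding 0.5, with exact permutation tests. Correlations used 100000 permutations. The treated groups share their controls. Intervals on shares are Clopper-Pearson. Replicate numbers follow accession order.

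Alternatives were RLE scaling, library totals, no filter, DESeq2 1.42.0, limma 3.58.1 on log2(RPM + 1) or log2(RPM + 10) with at least 1 RPM in 3 libraries, the groups compared alone, a block on label code series, and leaving out each library. The RPM values are per precursor, so limma tested 543 precursor rows and a miRNA with several precursors could be counted more than once. Fold changes on the log2(RPM + pseudocount) scale understate changes of scarce miRNAs.

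The members, the lists and the tests were chosen with earlier results of these data known. The lists were other arms of the cluster, the miR-200 family, other epithelial, sensory and neuronal, islet and neuroendocrine, acinar, endothelial, stellate and mesenchymal, leukocyte and erythrocyte miRNAs. Named miRNAs were the members, their 3p arms, up to 4 abundant members per list, neighbours in level, and the 5 likest to each member. Sequences and positions are from RefSeq (GRCm38.p6) and GENCODE M21. Python 3.11.15, scipy 1.17.1 and matplotlib 3.10.9 were used.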

Additional observations from a re-analysis of the deposited data

How the results depend on the processing

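Of 552 alternative values of the 24 comparisons of members, 1 was called: miR-182-5p for caerulein 100 pM against TLC-S 62.5 uM without caerulein 100 pM replicate 1 (1.02; range over left-out libraries 0.52 to 1.02). In that setting 11 of 366 miRNAs were called. In 15 of the 24 comparisons the sign held in all 23 alternatives. For miR-182-5p with TLC-S 62.5 uM against control, the sign turned with RLE scaling (0.0150), library totals (0.15), DESeq2 (0.0150), limma with a pseudocount of 1 or 10 (0.18 for both) and the groups alone (0.0075). For miR-96-5p with caerulein 100 nM against TLC-S 250 uM it turned with RLE scaling (-0.00038), DESeq2 (-0.00048) and the groups alone (-0.0028). With library totals and limma at either pseudocount, it turned for miR-183-5p with caerulein 100 nM against 100 pM (0.13 in all 3) and for miR-96-5p with caerulein 100 pM against TLC-S 62.5 uM (-0.12, -0.17 and -0.16). The correlation of miR-96-5p with miR-182-5p passed with library totals (r = -0.72, permutation test, adjusted p = 0.00699). The cause was not tested.

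With single libraries left out, the sign also turned in these log2 differences. Caerulein 100 nM against control ran from -0.039 to 0.21 for miR-183-5p and from -0.36 to 0.029 for miR-96-5p. For miR-182-5p, TLC-S 250 uM against control ran from -0.022 to 0.34 and TLC-S 62.5 uM against control from -0.19 to 0.19. Caerulein 100 nM against 100 pM ran from -0.32 to 0.060 for miR-183-5p and from -0.15 to 0.23 for miR-96-5p. Caerulein 100 nM against TLC-S 250 uM ran from -0.18 to 0.19 for miR-96-5p and from -0.0057 to 0.41 for miR-182-5p. Against control, the log2 ratio of miR-182-5p to miR-183-5p ran from -0.058 to 0.50 for caerulein 100 nM, from -0.0059 to 0.56 for TLC-S 250 uM and from -0.017 to 0.55 for TLC-S 62.5 uM. For TLC-S 250 uM the ratio of miR-96-5p to miR-183-5p ran from -0.15 to 0.16 and that of miR-182-5p to miR-96-5p from -0.055 to 0.66.

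The number of miRNAs called between caerulein 100 pM and TLC-S 62.5 uM was 5, against 11 with DESeq2, 9 without the low-count filter, 2 with the groups alone, 2 and 6 with limma at a pseudocount of 1 and 10, and 2 to 11 with a library left out. Against control, TLC-S 62.5 uM had 2 called, 4 with DESeq2, 5 without the filter, 5 with the block described next, 0 with limma at a pseudocount of 1, 0 with the groups alone and 1 to 3 with a library left out. Between the TLC-S doses 4 were called, 2 with RLE scaling, 0 with limma at a pseudocount of 1 and 1 to 4 with a library left out. The test over all groups called 3, 7 with DESeq2, 10 without the filter, 6 with the block, 1 with limma at a pseudocount of 1 and 1 to 4 with a library left out. Counts with limma are of precursor rows, not of mature miRNAs.

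The labels do not state that the code series pair the libraries. Libraries of different groups were correlated by the deviations of their log2 CPM from the group means, not by the levels themselves. Within the same series these correlations ran from -0.106 to 0.357 (median 0.09, 30 pairs). Between different series they ran from -0.342 to 0.213 (median -0.02, 60 pairs). With the series as a replicate block, 0 members were called, 14 miRNAs were called between caerulein 100 pM and TLC-S 62.5 uM, and miR-182-5p with TLC-S 62.5 uM against control was at 0.055. The block changed no member's call.

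Each group held 3 libraries, and exact tests of 3 against 3 cannot go below 0.1. The shallowest library, caerulein 100 nM replicate 2, held 535473 counts and 514 of miR-96-5p. The 3p arms had too few counts to be tested.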
